A study of Mus musculus with 8 samples.

Results

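The 9 genes described here belong to the Zic family (Zic1, Zic2, Zic4 and Zic5) and the Iroquois family (Irx1, Irx2, Irx3, Irx5 and Irx6) of transcription factors, taken from 34652 named genes on the array. They were found by gene name among the non-control probes, which gave 14 probes. The families were chosen by measured values: Irx1 and Zic1 had opposite differences between RAX-positive and RAX-negative cells after the pair of treatments. All differences between the sorted populations are therefore given as descriptions.

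Zic proteins carry zinc fingers related to those of the GLI factors of the Hedgehog pathway. They act in the neural plate and the dorsal neural tube, and loss of ZIC2 causes holoprosencephaly. Irx proteins are homeodomain factors of the TALE class that lie in gene clusters, and in the early forebrain Irx3 marks territory behind the Six3-expressing anterior part. Irx genes are also active in retinal ganglion cells, and Irx5 and Irx6 in bipolar cells of the retina.

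Gene expression was read on 8 single-colour Agilent arrays, 1 for each group, from RNA in which 3 sets of experiments had been pooled. There is thus no replicate, no p-value was computed, and the number of arrays limits the precision. Sorted cells came from the K/l-EB5 mouse embryonic stem cell line with green fluorescent protein at Rax, a homeobox gene of the eye field and hypothalamus. All cultures were neuralized and received IWR-1-endo, a Wnt pathway inhibitor, from day 3 (5 µM). To this was added, 12 h later, either Activin A (10 ng/ml), a ligand that signals through SMAD2 and SMAD3, or the Hedgehog agonist SAG (100 nM), and these cultures were sorted on day 10 into RAX-positive and RAX-negative cells. The Wi control was another cell line, E14Tg2A, with the inhibitor alone and no sort mentioned. The 3 tissues, cortex, diencephalon/hypothalamus and eye, came from mouse embryos of the Sv129s6 strain at embryonic day 12.5.

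Between 59.5% and 79.3% of spots were well above background, RAX-positive cells after activin having the highest share. Their array also read 44% of 1359 olfactory or vomeronasal receptors well above background, where the other arrays read 11.7% to 24.5%. Rax, the sort marker, stood at 5.67 and 2.50 in RAX-positive and RAX-negative cells after activin and at 5.66 and 3.27 after SAG, on the log2 scale explained next. It stood at -3.90 in the Wi control, -3.11 in cortex, 3.33 in diencephalon/hypothalamus and 4.71 in eye. The RAX-negative cells thus held Rax RNA far above the control and cortex, and the gates compare higher with lower Rax, not presence with absence. Markers of each dissected tissue were present: Tbr1 stood at 4.97 in cortex, Nkx2-1 at 3.28 in diencephalon/hypothalamus and Six6 at 3.49 in eye. The eye also held lens genes, with a median of 4.47 over 6 of them, and pigment genes, with a median of 3.76 over 5. In bulk RNA, fewer cells of a type and less RNA per cell cannot be told apart.

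A level is the log2 signal of a probe minus the 75th percentile of its array, so 0 is a fairly bright probe and each unit is a doubling. Where a gene had more than 1 probe, the one of highest mean level over all arrays is given first. A difference passed the rule of size at 1 or more in log2 (2-fold), given that the brighter array was well above background. Where the dimmer array was not well above background, its level was raised to a floor if it lay under it. The floor was the dimmest reading on the same array that counted as well above background. A fold from a raised level is written "at least". Dim levels over the floor were kept as read, and their folds rest on a reading near background. "At least" is not a firm bound, since the Zic2 gate difference after SAG fell to -0.07 with normexp background correction. The rule itself was held against the measured difference, and the member counts were the same with the raised level in all 11 comparisons. The ± values are 1 standard error from the scanner's error model and cover the reading of the arrays, not the spread between cultures. Levels of different probes are not compared.

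Zic1 was read by 2 probes that disagreed, so the start of each is shown (the first 30 of 60 bases, mm9). Probe A_51_P194230 lies at chr9:91255425-91255484 on the minus strand, at position 3048 of its transcript. Probe A_55_P2009774 lies at chr9:91257301-91257360, at position 1864, nearer the 5′ end. The exon or untranslated region that a probe covers is not annotated in the files. The starts of the probes of Irx1 (chr13:72095735-72095794, minus strand) and Irx2 (A_55_P2125557, chr13:72771499-72771558, plus strand) follow. Of the members Irx1 had the widest span of levels over the arrays, and Irx2 is linked to it.
Zic1 A_51_P194230: atccgcatgtaaagggtctggtttattcat
Zic1 A_55_P2009774: ctacctttgcaagatgtgcgataagtccta
Irx1 A_52_P1092823: ctttgtttcttttttcccctttctgtatat
Irx2 A_55_P2125557: gatacctacggttccagtttattcacatag

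RefSeq promoter sequence (GRCm38.p6) was at hand for 5 of the 9 genes, namely Zic1, Zic4, Zic5, Irx2 and Irx3. Zic1 and Zic4 run in opposite directions from starts 3.2 kb apart. The 250 bases before the start are shown for Zic1 (chr9:91365769-91366018, minus strand), Zic4 (chr9:91368722-91368971, plus strand), Irx2 (chr13:72628570-72628819, plus strand) and Irx3 (chr8:91801655-91801904, minus strand). This set holds a linked Zic pair and an Irx gene from each cluster. Capitals mark CAGAC, the box bound by SMAD proteins, and GGGCGG, the GC box, on either strand.
Zic1: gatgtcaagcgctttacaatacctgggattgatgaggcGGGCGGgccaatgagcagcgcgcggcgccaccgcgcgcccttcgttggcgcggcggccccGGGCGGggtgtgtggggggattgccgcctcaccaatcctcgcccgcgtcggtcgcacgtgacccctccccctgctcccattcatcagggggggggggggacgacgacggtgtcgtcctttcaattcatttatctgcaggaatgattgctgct
Zic4: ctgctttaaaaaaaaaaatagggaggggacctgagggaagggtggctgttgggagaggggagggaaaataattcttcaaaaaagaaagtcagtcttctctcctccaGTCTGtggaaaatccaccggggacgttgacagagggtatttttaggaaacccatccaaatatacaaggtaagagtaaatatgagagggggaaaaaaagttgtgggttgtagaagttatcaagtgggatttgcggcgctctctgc
Irx2: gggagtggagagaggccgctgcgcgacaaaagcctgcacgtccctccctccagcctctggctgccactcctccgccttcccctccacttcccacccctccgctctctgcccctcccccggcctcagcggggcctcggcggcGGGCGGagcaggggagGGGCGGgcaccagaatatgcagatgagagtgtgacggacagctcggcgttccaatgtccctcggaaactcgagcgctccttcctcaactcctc
Irx3: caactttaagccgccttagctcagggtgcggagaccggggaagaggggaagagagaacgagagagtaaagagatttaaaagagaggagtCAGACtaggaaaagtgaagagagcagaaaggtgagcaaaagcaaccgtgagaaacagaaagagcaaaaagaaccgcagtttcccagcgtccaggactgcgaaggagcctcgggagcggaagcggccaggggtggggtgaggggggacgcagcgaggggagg

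The GC box stood 2 times in the Zic1 window and 2 times in that of Irx2, and at least once in 32.7% of all 32851 windows of this length. CAGAC stood once each in the Zic4, Zic5 and Irx3 windows and was in 42.2% of all windows. Neither TGGGTGGTC, the GLI core, nor GTCTAGAC, the SMAD palindrome, was in any of the 5 windows, and they were in 0.225% and 0.167% of all windows. These are matches of letters on both strands, not binding sites. GC content was 66% before Zic1, with 27 CpG pairs, and 44.4% before Zic4, with 4.

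Irx1, of the IrxA cluster on chromosome 13, stood at 0.41 in RAX-negative and 2.60 in RAX-positive cells after activin, at 0.07 and -3.40 after SAG, at 1.43 in the Wi control, at -5.08 in cortex, at 0.51 in diencephalon/hypothalamus and at 4.01 in eye. Eye was the highest array and RAX-positive cells after activin the next. Cortex was the lowest and RAX-positive cells after SAG the next lowest, while diencephalon/hypothalamus and both RAX-negative populations lay within the reading error of their neighbour in the order. All 8 arrays were well above background. In the RAX-positive cells Irx1 was thus higher than in the RAX-negative cells after activin, by 2.19 ± 0.20 or 4.56-fold, and lower after SAG, by 11-fold (-3.46 ± 0.21).

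Irx2, its neighbour 675.7 kb away by probe position, had the same highest array and the same lowest pair. Its first probe stood at -1.25 and -0.10 in RAX-negative and RAX-positive cells after activin, at -0.85 and -4.26 after SAG, at 0.08 in the Wi control, at -4.80 in cortex, at -1.45 in diencephalon/hypothalamus and at 1.60 in eye. Its gate differences were 1.15 ± 0.21 (2.22-fold higher) after activin and -3.41 ± 0.23 (10.66-fold lower) after SAG. Its second probe, A_52_P635312 at chr13:72768784-72768843, gave 3.46-fold higher and at least 3.73-fold lower, the same directions. The RAX-negative array after activin was not well above background for this probe, and its level was kept as read. The level of Irx2 after activin in RAX-positive cells and that of the Wi control were within reading error.

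**Figure D1:**
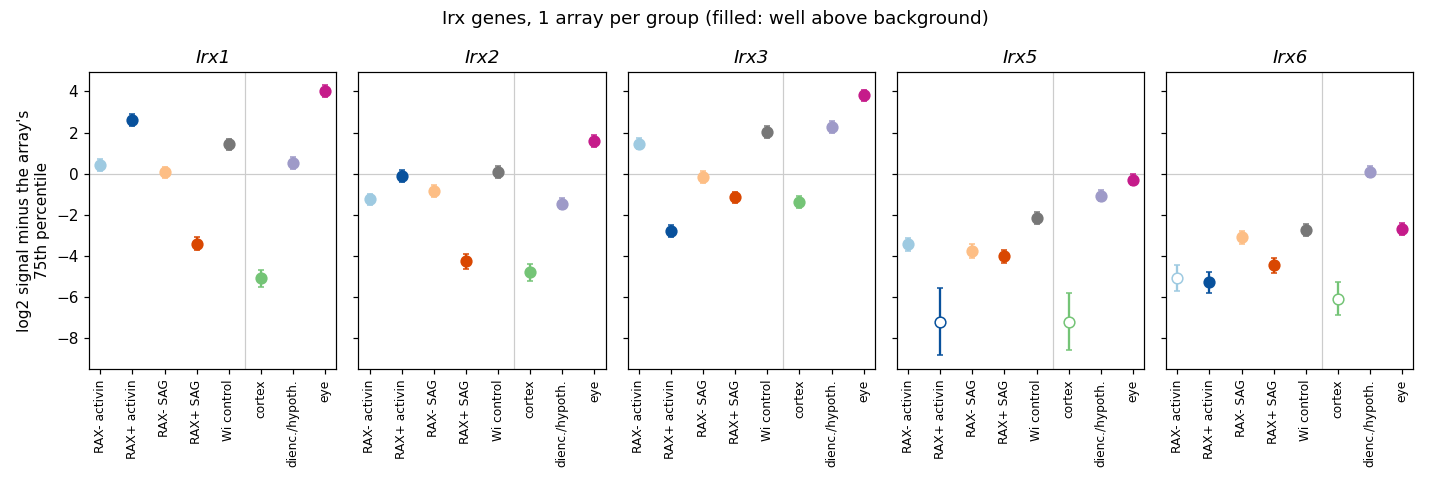
Levels of the 5 Irx genes on the 8 arrays. Each point is 1 array, the vertical axis is the log2 signal minus the 75th percentile of the array, bars are 95% reading intervals and open points were not well above background. Irx1 runs from -5.08 in cortex to 4.01 in eye, and the 2 RAX-positive points of Irx1 and Irx2 lie on opposite sides of their RAX-negative partners.

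The IrxB cluster on chromosome 8, which holds Irx3, Irx5 and Irx6, differed from this. Irx3 (chr8:94322476-94322535) stood at 1.46 and -2.77 in RAX-negative and RAX-positive cells after activin, at -0.16 and -1.15 after SAG, at 2.04 in the Wi control, at -1.36 in cortex, at 2.26 in diencephalon/hypothalamus and at 3.81 in eye. RAX-positive cells after activin were the lowest of the 8 arrays for this gene. There it was 18.8-fold lower than in the RAX-negative cells (-4.23 ± 0.21), and after SAG it was 1.99-fold lower (reading error 0.20), just outside the rule.

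Irx5, 562.4 kb from Irx3, stood at -3.44 and -7.20 in RAX-negative and RAX-positive cells after activin, at -3.75 and -4.02 after SAG, at -2.14 in the Wi control, at -7.19 in cortex, at -1.06 in diencephalon/hypothalamus and at -0.29 in eye. The arrays of RAX-positive cells after activin and of cortex were not well above background. After activin Irx5 was at least 5.31-fold lower in the RAX-positive cells. After SAG the gates differed by -0.27 ± 0.24.

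Irx6 stood at -5.08 (not well above background) and -5.28 in RAX-negative and RAX-positive cells after activin, at -3.08 and -4.45 after SAG, at -2.72 in the Wi control, at -6.07 (not well above background) in cortex, at 0.11 in diencephalon/hypothalamus and at -2.70 in eye. It was the Irx gene whose highest array was not eye. The gate difference after activin could not be read, since the brighter array was near its background, and after SAG it was -1.37 ± 0.25, or 2.58-fold lower in the RAX-positive cells.

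Zic1, on chromosome 9, gave different pictures by its 2 probes. Probe A_51_P194230 stood at 1.37 and 3.47 in RAX-negative and RAX-positive cells after activin, at 3.49 and 1.13 after SAG, at 4.77 in the Wi control, at 3.37 in cortex, at 3.14 in diencephalon/hypothalamus and at 3.57 in eye. RAX-positive cells after activin and RAX-negative cells after SAG were as bright as the 3 tissues, with each neighbour in that order within reading error, and the other sorted populations were lower. Its gate differences were 2.10 ± 0.20 (4.27-fold higher) after activin and -2.36 ± 0.20 (5.13-fold lower) after SAG.

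Probe A_55_P2009774 of Zic1 stood at 0.83 and 0.43 in RAX-negative and RAX-positive cells after activin, at -1.74 and -3.24 after SAG, at 0.64 in the Wi control, at -1.12 in cortex, at -1.49 in diencephalon/hypothalamus and at -0.76 in eye. By this probe both activin populations were higher than both SAG populations. The gate difference was -0.40 ± 0.20 after activin, short of the rule, and -1.50 ± 0.21 after SAG. The opposite gate differences of Zic1 therefore hold for 1 of its 2 probes.

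Over the 8 arrays the 2 Zic1 probes had a Pearson r of 0.37 with each other. The second probe had r = 0.87 with Zic5 and 0.83 with Zic2. These arrays share a platform, and 4 of them are sorted fractions of the same treatments, so the correlations are descriptions. The Zic zinc fingers are alike in sequence between family members, and whether either probe reads RNA of another member was not tested. Where Zic4, Zic5 and Irx2 had more than 1 probe, the probes had r of at least 0.93.

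**Figure D2:**
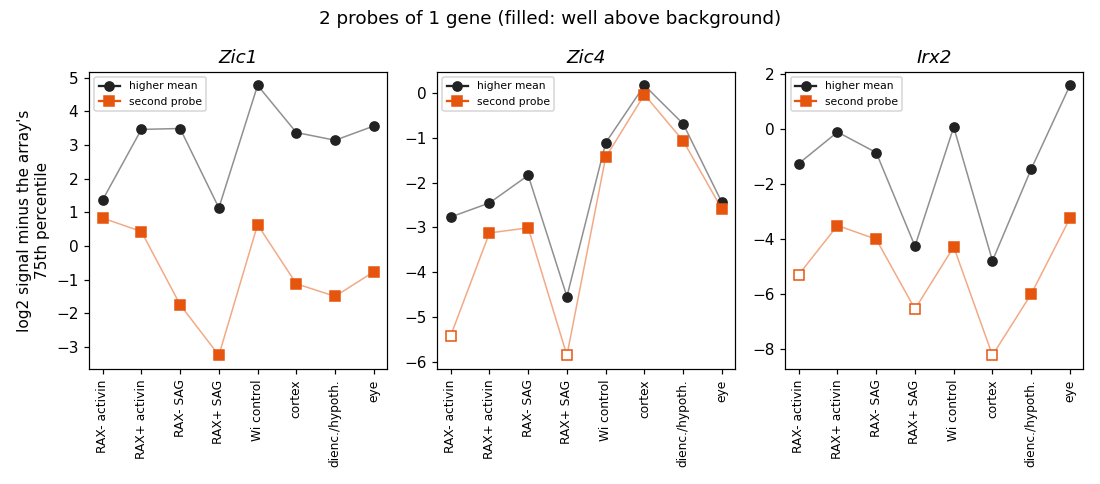
Levels of both probes of Zic1, Zic4 and Irx2 on the 8 arrays, as log2 signal minus the 75th percentile of the array. Black circles are the probe with the higher mean, orange squares the second probe, and open symbols were not well above background; the Zic1 probes cross in shape (r = 0.37), while those of Zic4 (r = 0.94) and Irx2 (r = 0.93) run together.

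Zic4, 27.4 kb from Zic1 by probe position (chr9:91282924-91282983), stood at -2.77 and -2.46 in RAX-negative and RAX-positive cells after activin, at -1.84 and -4.55 after SAG, at -1.11 in the Wi control, at 0.17 in cortex, at -0.69 in diencephalon/hypothalamus and at -2.44 in eye. Cortex was highest, and RAX-positive cells after SAG were lowest. The gate difference was 0.31 ± 0.21 after activin and -2.71 ± 0.24, or 6.53-fold lower, after SAG. Its second probe, A_52_P502228, was at least 4.66-fold higher in RAX-positive cells after activin, where the RAX-negative array was not well above background. After SAG this probe was 7.19-fold lower, with the RAX-positive array not well above background and its level kept as read.

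Zic2, the holoprosencephaly gene, and Zic5 lie 23.2 kb apart on chromosome 14. Zic2 (chr14:122879296-122879355) stood at 0.05 and -0.51 in RAX-negative and RAX-positive cells after activin, at -6.18 (not well above background) and -4.18 after SAG, at 0.75 in the Wi control, at -1.90 in cortex, at -2.30 in diencephalon/hypothalamus and at -2.08 in eye. The activin populations and the Wi control were above all 3 tissues, and the SAG populations below them. The gates differed by -0.57 ± 0.20 after activin, and after SAG the RAX-positive cells were at least 2.39-fold higher, a value that came out at -0.07 with normexp background correction.

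Zic5 (chr14:122856019-122856078) stood at 3.16 and 2.42 in RAX-negative and RAX-positive cells after activin, at -2.98 and -2.86 after SAG, at 3.06 in the Wi control, at 2.39 in cortex, at 0.19 in diencephalon/hypothalamus and at 2.02 in eye. Both SAG populations were lower than every other array, and the gates differed by -0.74 ± 0.20 after activin and 0.13 ± 0.21 after SAG. Of its 3 probes, A_55_P2003693 gave 2.75-fold lower in RAX-positive cells after activin and was near background on both SAG arrays.

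**Figure D3:**
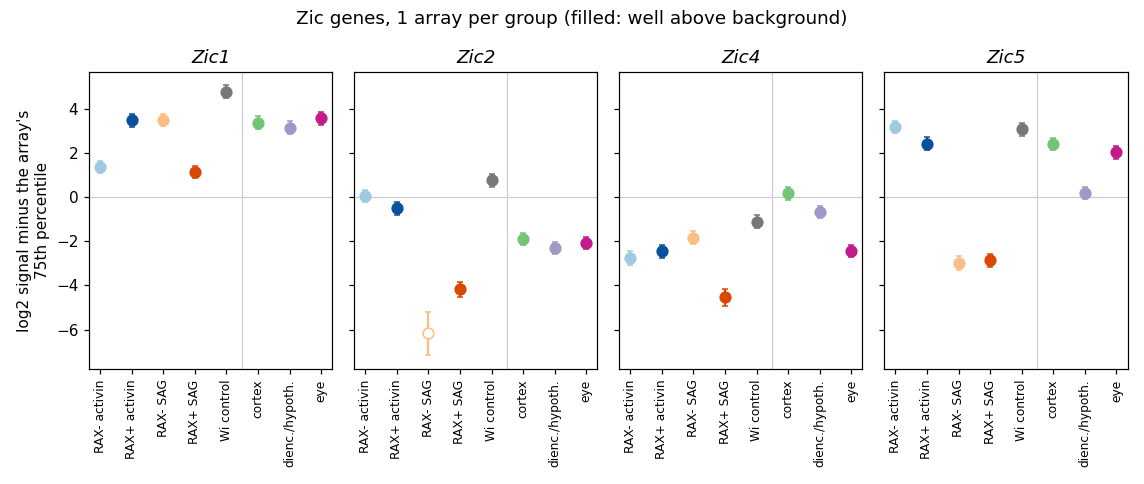
Levels of Zic1, Zic2, Zic4 and Zic5 (probe with the highest mean) on the 8 arrays, as log2 signal minus the 75th percentile of the array. Bars are 95% reading intervals and open points were not well above background. Zic2 and Zic5 are higher on both activin arrays than on both SAG arrays. In the order plotted, the Zic1 points of the sorted cells stand at 1.37, 3.47, 3.49 and 1.13.

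Counted over the families, 8 of the 9 genes were detected between the gates after activin. Of these, 3 passed the rule as higher in RAX-positive cells (Irx1, Irx2 and Zic1) and 2 as lower (Irx3 and Irx5). Over the 28933 genes detected, 23.1% passed as higher and 6.24% as lower. After SAG, Zic2 passed as higher and 5 genes as lower (Irx1, Irx2, Irx6, Zic1 and Zic4), while over all detected genes the shares were 7.17% and 10.6%. The median difference of the members was -0.13 after activin, against 0.12 for all genes, and -1.37 after SAG, against 0.02. Since the members were chosen on these contrasts, nothing is read from those counts. Over all genes detected in both contrasts, 748 of 25824 (2.9%) had a positive call after activin with a negative one after SAG, and 75 (0.29%) the reverse.

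**Figure D4:**
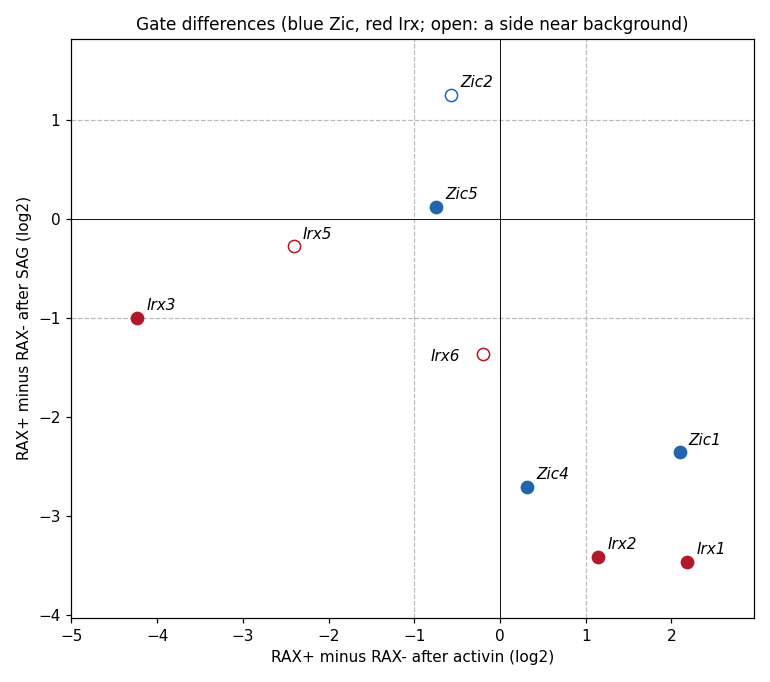
Difference between RAX-positive and RAX-negative cells after activin (horizontal) and after SAG (vertical) for each gene, in log2. Blue points are Zic genes, red points Irx genes, open points have an array near background, and dashed lines mark the size rule of 1; Irx1, Irx2 and Zic1 lie at the lower right and Irx3 at the far left, at -4.23.

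Other cell types moved with these gate differences. Pluripotency genes had a median level of 3.53 in RAX-negative and -2.04 in RAX-positive cells after activin, with 6 of 7 lower in the RAX-positive cells, and of -1.12 and -4.88 after SAG, with 5 of 7 lower. Of the mesenchyme genes, the RAX-positive cells had lower levels for 6 of 9 after activin and 9 of 9 after SAG. Surface ectoderm genes were lower there for 4 of 7 and 3 of 7, and neuron genes for 1 of 7 and 3 of 7. Their part in the Zic and Irx gate differences was not tested. The place of an array on its slide is given by 2 numbers. The first was 1 for both RAX-positive arrays and 2 for both RAX-negative arrays, so gate and place cannot be told apart.

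Within RAX-positive cells, Zic1, Zic2, Zic4 and Zic5 were higher with activin than with SAG. Zic5 was 38.8-fold higher (5.28 ± 0.21), Zic2 12.7-fold, Zic1 5.04-fold and Zic4 4.26-fold. The second Zic1 probe gave 12.8-fold, in the same direction. Irx1 was 63.9-fold higher (6.00 ± 0.21) and Irx2 17.9-fold, while Irx3 was 3.07-fold and Irx5 at least 3.54-fold lower and Irx6 differed by -0.83 ± 0.33. In all 6 members passed as higher and 2 as lower, where 18.7% of all 29087 detected genes passed as higher and 6.58% as lower. The median over the members was 2.33, against 0.27 over all genes. Lists of other cell types moved with it in both directions. With activin 5 of 9 mesenchyme genes and 4 of 5 pigment genes were higher and 0 lower, 4 of 7 surface ectoderm genes were higher and 1 lower, and 6 of 7 neuron genes were lower and 0 higher. Their part in the result was not tested. These contrasts reuse the arrays of the gate comparisons.

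In RAX-negative cells the split between the genes was different. Zic5 was 70.7-fold higher with activin (6.14 ± 0.21), Zic2 at least 44.8-fold and Irx3 3.07-fold. Zic1 was 4.35-fold lower by its first probe (-2.12 ± 0.20) and 5.95-fold higher by its second (2.57 ± 0.21), and the mean of both came to 0.23. Irx6 was 3.99-fold lower, with the activin array not well above background and its level kept as read. Irx1, Irx2, Irx5 and Zic4 stayed within 2-fold, at 0.35, -0.40, 0.31 and -0.93. Thus 3 members passed as higher and 2 as lower, beside 14.2% and 19.5% of all 25530 detected genes, with medians of 0.31 for the members and 0.05 for all genes. In this gate 6 of 7 pluripotency genes, 4 of 7 surface ectoderm genes and 4 of 5 pigment genes were higher with activin, while 6 of 7 neuron genes were lower and mesenchyme genes were split, 4 higher and 2 lower of 9. Their part in the Zic and Irx values was not tested. The second number of the slide place was 1 for both activin arrays and 2 for both SAG arrays, so factor and place cannot be told apart.

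**Figure D5:**
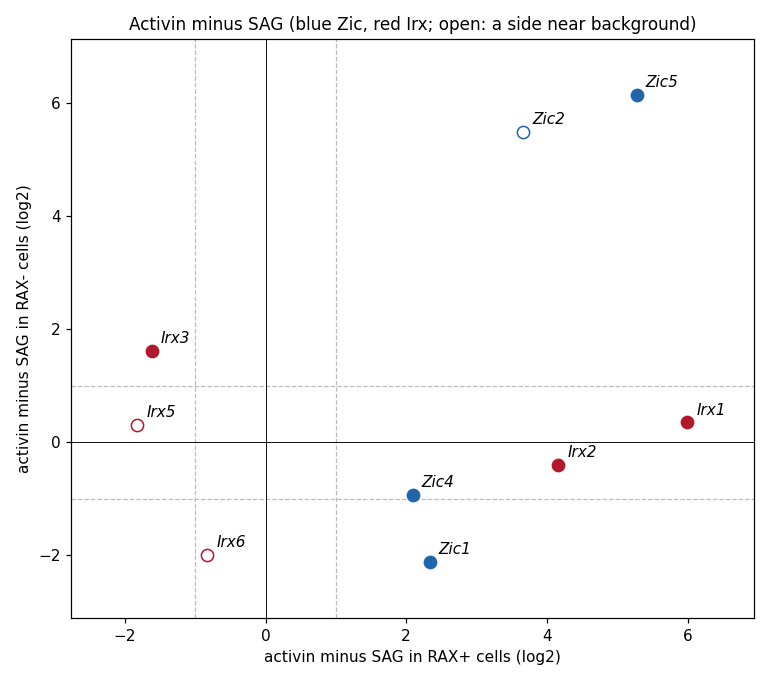
Difference between activin and SAG in RAX-positive cells (horizontal) and RAX-negative cells (vertical) for each gene, in log2. Blue points are Zic genes, red points Irx genes, open points have an array near background, and dashed lines mark the size rule of 1; Zic2 and Zic5 lie high on both axes, and Irx1 at 6.00 on the horizontal and 0.35 on the vertical axis.

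Relatives of the families were read between activin and SAG too. In RAX-positive cells 18.7% of all genes passed as higher and 6.58% as lower, and the counts below are descriptions beside those shares. Of 6 GLI and GLIS genes, Gli2, a Hedgehog effector, was at least 61.4-fold higher with activin than with SAG in RAX-positive cells and at least 29-fold in RAX-negative cells. Gli1, a Hedgehog target, was 2.29-fold lower in the RAX-positive cells, and 1 of the 6 was higher and 2 lower there. Of the 12 TALE homeobox relatives of Irx, 4 were higher and 0 lower in that comparison, led by Meis1, a cofactor of Hox proteins, at 12.3-fold. Of 14 genes of the roof plate and dorsal midline, where Zic genes act, 12 were detected and 3 were higher, all of the Wnt-amplifying R-spondins: Rspo1 at 53.9-fold, Rspo3 at 22.2-fold and Rspo2 at 5.45-fold.

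On the anterior side of the boundary between Six3 and Irx3 territory, 5 of 8 genes were higher in RAX-positive than in RAX-negative cells after activin, or 4 of 7 without Rax, whose difference the sort sets. Over all genes 23.1% passed as higher. Of these genes Six3 was 5.92-fold higher where Irx3 was 18.8-fold lower. After SAG, 3 of these 8 were higher (2 of 7 without Rax) and 1 lower, beside 7.17% and 10.6% of all genes. There Six3 was 5.7-fold higher and Irx3 1.99-fold lower. The tissues did not show this opposition. Six3 stood at -4.94 in cortex, 0.73 in diencephalon/hypothalamus and 0.98 in eye, and Irx3 stood at -1.36, 2.26 and 3.81 in the same order. On the posterior side, a list of 16 genes of thalamus, midbrain and hindbrain, 12 were detected between the gates after activin, 5 of them higher and 2 lower. Of the 5, only 2 (Pax2 and Lhx9) were higher by the rule once dim levels were raised to the floor, since Pax5, Hoxa2 and Hoxb2 were not well above background in the RAX-negative cells. Over all genes 23.1% passed as higher, and 10.1% with the raised level. Pax2, of the optic stalk and midbrain boundary, was 4.54-fold higher and Pax3 3.94-fold lower. Between activin and SAG in RAX-positive cells, 8 of the 16 were higher and 0 lower, and 5 were higher with dim levels raised, beside 18.7% and 13.6% of all genes. Here the array of the activin group is the one with the most spots above background.

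Against the Wi control, a culture of another line on another slide, line and slide cannot be told apart from treatment. The 4 comparisons share this 1 array, so they are given side by side. In RAX-positive cells after SAG, 9 of 9 members were lower and 0 higher, beside 19.3% lower and 20.9% higher of all genes, from Zic5 at 60.3-fold to Irx6 at 3.31-fold. In RAX-negative cells after SAG, 6 were lower and 0 higher, beside 17% and 17.5%, with Zic2 at least 72.7-fold and Zic5 65.8-fold lower. In RAX-positive cells after activin, Irx1 was higher (2.26-fold) and 6 genes lower, beside 30% higher and 14.1% lower of all genes. In RAX-negative cells after activin, 0 were higher and 6 lower, beside 18.9% and 21.4%.

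Zic5 stayed within 2-fold of the Wi control after activin, at -0.64 in RAX-positive and 0.10 in RAX-negative cells. Irx3 was 28-fold lower than the control in RAX-positive cells after activin and 9.15-fold in those after SAG. The control had the highest level of the 8 arrays for Zic2 and for the first Zic1 probe, while the second Zic1 probe was highest in RAX-negative cells after activin. That second probe differed from the control by -0.20 in RAX-positive and 0.20 in RAX-negative cells after activin, both short of the rule, where the first probe was called lower in each. After SAG both probes were lower than the control in each gate. In the control, pluripotency genes had a median level of 1.99 over 7 genes and cortex genes one of 2.47 over 6. In RAX-positive cells after SAG, 6 of 6 cortex genes and 9 of 9 mesenchyme genes were lower than in the control. After activin, 7 of 7 neuron genes were lower in RAX-positive cells. In RAX-negative cells after activin, 8 of 9 mesenchyme genes were higher and 1 lower. The part of these cell types in the Zic and Irx values was not tested.

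Among the tissues, the Irx genes separated eye from cortex. Irx1 was 546-fold higher in eye (9.09 ± 0.26), Irx2 84.3-fold, Irx3 36.1-fold, Irx5 at least 55.2-fold and Irx6 10.4-fold. The cortex level of Irx6 was not well above background and was kept as read. The Zic genes differed less: Zic4 was 6.12-fold lower in eye, and Zic1, Zic2 and Zic5 were within 2-fold. In this pair 5 members were higher and 1 lower, beside 18.5% and 7.78% of the 27344 genes detected, with a median of 3.37 against -0.02. The lens list was higher in eye for 6 of 6, the pigment list for 5 of 5, mesenchyme for 6 of 9 and surface ectoderm for 6 of 7. Neuron genes were lower for 6 of 7, and which of these cells held the Irx RNA was not tested. The first number of the slide place was 2 for cortex and 1 for eye and diencephalon/hypothalamus, so tissue and place cannot be told apart. Of spots, 62.5% were well above background in cortex, 75% in eye and 73% in diencephalon/hypothalamus.

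Diencephalon/hypothalamus stood between for most Irx genes. Eye was 11.4-fold higher than diencephalon/hypothalamus for Irx1, 8.29-fold for Irx2 and 2.93-fold for Irx3, but 6.98-fold lower for Irx6, and Irx5 differed by 0.77 ± 0.20. With Zic5 (3.55-fold higher) and Zic4 (3.38-fold lower), 4 members were higher and 2 lower, beside 12.1% and 8.65% of all genes. Cortex was lower than diencephalon/hypothalamus for all 5 Irx genes, from 72.3-fold for Irx6, by its dim cortex level as read, and 48.1-fold for Irx1 to 10.2-fold for Irx2. Zic5 was 4.59-fold higher in cortex. That gave 1 member higher and 5 lower, beside 9.04% and 14.5%. Markers moved with both pairs. Against diencephalon/hypothalamus, eye was higher for 5 of 5 pigment genes, 5 of 6 lens genes and 5 of 9 mesenchyme genes and lower for 6 of 7 neuron genes. Cortex was lower for 6 of 7 surface ectoderm genes, 5 of 9 mesenchyme genes and 3 of 7 neuron genes. Their part in the Irx and Zic values was not tested.

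Among the members, genes that lie together in the genome were the most alike over the 8 arrays. Irx1 and Irx2 had r = 0.98, Irx3 and Irx5 0.93, Irx5 and Irx6 0.81, Zic2 and Zic5 0.93, and Zic1 and Zic4 0.67, and every member, Zic1 by its first probe, had its highest r among the members with a linked one. The second Zic1 probe was closer to Zic5 (0.87) than to the linked Zic4 (0.28). Between the clusters the values were lower, 0.50 for Irx1 with Irx3. Among 13402 genes that spanned at least 2 in log2, Irx2 ranked first for likeness to Irx1, followed by Fcmr (0.966), Klhl14 (0.966), 1700009N14Rik (0.962) and Gm4544 (0.96). Those 4 were well above background on only 2, 5, 4 and 5 of the 8 arrays, so their r rests in part on readings near background. For Zic1, by its first probe, the closest were Styk1 (0.956), Abtb2 (0.948), Grid1 (0.944), Bin2 (0.935) and the unnamed probe A_55_P2073329 (0.929). Of these, Styk1 was well above background on 5, Grid1 on 6 and Bin2 on 7 of the 8 arrays. With other scalings 1 to 3 of the 5 stayed among the closest for Zic1.

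Transcripts printed near the members did not all follow them. Irx3os, 6.3 kb from the Irx3 probe, differed by 0.03 in log2 between the gates after activin, where Irx3 differed by -4.23. After SAG Irx3os was higher in RAX-positive cells by 1.11 in log2, where Irx3 was 1.99-fold lower. It was lower with activin than with SAG in RAX-positive cells by 1.08 in log2. Fto, 130.7 kb from the Irx3 probe, had gate differences of 0.08 after activin and -0.40 after SAG. BB247860, whose probe lies 0 kb from the Zic5 probe, was higher with activin than with SAG, the direction of Zic5. Its differences were 5.15 in RAX-positive and 5.95 in RAX-negative cells. Whether that probe reads the Zic5 transcript itself was not tested, so it is not taken as a separate neighbour. Crnde, a noncoding transcript 16.2 kb from the Irx5 probe, was -1.84 between the gates after activin, the direction of Irx5. Mmp2, a matrix protease gene 173 kb from the Irx6 probe, differed by -1.32 after activin and -1.72 after SAG.

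The split of calls over all genes depended on the scaling, and the members' background moves with it. Between the gates after activin 78.8% of the called genes were higher, and 64% with median scaling, 61% with quantile scaling, 48.2% with the authors' values and 38.6% with normexp background. Between the gates after SAG the share was 40.4%, with 51% under median scaling and 25.7% under normexp. For activin against SAG it was 74% in RAX-positive cells, 60.8%, 54.8%, 48.4% and 49.1% under those 4 settings in the same order, and 42.2% in RAX-negative cells, 61.5% with median scaling. For RAX-positive cells after activin against the control it was 68%, and 57.7%, 52.6%, 46.8% and 48.3%. Median scaling turned the share from 70.4% to 37.2% for eye against cortex and from 38.4% to 62.5% for cortex against diencephalon/hypothalamus. It took the median of all genes from -0.02 to -0.48 for eye against cortex. The direction of 70 called member differences was kept in 70 under median scaling, 70 under quantile scaling, 70 with the authors' values and 69 with normexp, the exception being Zic2 between the gates after SAG.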

How the data were processed

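RNA of 8 groups was hybridized to single-colour Agilent arrays, 1 for each group. The authors read them with Feature Extraction 10.7.3.1, per the file headers, while the submitters' processing notes name Agilent Feature Extraction 9.1 and limma; probe positions are mm9, per the file headers. The deposited scanner tables hold intensity for each spot, background-subtracted by the authors, and the deposited value table holds log2 values with a median of 6.36 to 6.40 in each column, whose offset is not given in the sources used here.

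Outlier spots (136 to 307 an array) were removed and repeated spots averaged. Signals were taken to log2 and scaled to the 75th percentile of the array in Python 3.11.15 with pandas 2.3.3. Of 14 member probes, 12 were named through RefSeq accessions and the others by the file. The Wi control file has another annotation (6584 spots with another gene name), in which 2 member probes have another name and 0 another sequence. The members and all gene lists were chosen with earlier results of these data known. Some items are not reported here.

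Named genes are every member by its probe of highest mean, with other probes where they disagree, the 5 genes of highest r with Zic1 and with Irx1, up to 4 called genes of a list, and genes within 200 kb of a member. Lists covered relatives, midline and boundary genes, and markers of 12 tissues and cell types. Alternatives were median or quantile scaling, normexp (offset 50, limma 3.58.1 in R 4.3.3), the authors' values, the mean of all probes, a stricter filter and a stricter size. The rule of size was tried on simulated data, in which only bright probes were changed, by more than the rule asks, with reading noise alone. It therefore does not bear on probes near background or on the spread between cultures.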

Additional observations from a re-analysis of the deposited data

Results flagged for a closer look

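The gate difference after activin minus the gate difference after SAG was 5.65 for Irx1 and 4.56 for Irx2, in log2, since both were higher in RAX-positive cells after activin and lower after SAG. It was 3.69 by the second Irx2 probe. For Zic1 it was 4.45 by probe A_51_P194230, and the second probe did not show opposite differences. The second Zic4 probe, A_52_P502228, gave 5.07 with arrays near background on the dim side, while the first gave 3.02. The difference was not tested for any of these, with 1 array for each group.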

How the results depend on the processing

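Of 70 member differences past the rule of size, 67 stayed past it in the same direction under median scaling, 69 under quantile scaling, 67 with the authors' values and 63 with normexp. Averaging the probes kept 26 of 29. With a log2 difference of 1.5 the members called against the Wi control fell from 7 to 3 for RAX-positive and from 6 to 3 for RAX-negative cells after activin. Asking for both arrays to be well above background left 3 of the 5 members called for activin against SAG in RAX-negative cells. With the mean of all probes the Zic1 gate difference was 0.85 after activin and -1.93 after SAG, and Zic1 turned to 0.23 for activin against SAG in RAX-negative cells. With normexp the Irx1 gate difference after SAG was -2.60, and Zic2 turned to -0.07 there. Over all genes, those higher in RAX-positive cells after activin numbered 6693, and 740 to 5244 in the other settings; raising dim levels to the floor before the call, an alternative chosen after seeing the data, gave 2931. The list of thalamus, midbrain and hindbrain genes lost 3 of its 5 higher calls between the gates after activin in that setting, and 3 of 8 for activin over SAG in RAX-positive cells. The same ranges were 441 to 2561, against 1908, for higher after SAG, 1117 to 4190, against 5443, for activin over SAG in RAX-positive cells, and 2176 to 6043, against 3634, in RAX-negative cells. The cause was not tested. With 1 array for each group no replicate could be left out and the slide could not be a block. No paired analysis was possible because each group has 1 array. Signal over background limits Irx5, Irx6 and Zic2, each near background on at least 1 sorted array.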
